A study of Homo sapiens with 18 samples.

Results

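The genes described here are NFE2L2, which encodes the transcription factor NRF2, KEAP1, which encodes its inhibitor, and 7 genes that NRF2 is known to activate, NQO1, HMOX1, GCLC, GCLM, TXNRD1, SRXN1 and GSR. They were chosen by name, as well-known NRF2 genes, with earlier results of these data known. All 9 were found among the 58884 gene identifiers of the count files, and all 9 had enough counts to be tested in every comparison.

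In resting cells KEAP1 binds NRF2 and hands it to a CUL3 ubiquitin ligase for degradation. When oxidants or electrophiles modify KEAP1, NRF2 accumulates, pairs with a small MAF protein (MAFF, MAFG or MAFK) and binds antioxidant response elements in its target genes, which make glutathione, recycle thioredoxin, reduce quinones and break down heme. This control acts on the NRF2 protein, which an RNA measurement does not see, and several of the targets answer to other factors too, HMOX1 to the repressor BACH1 among them.

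RNA-seq was done on T47D, an estrogen receptor-positive luminal breast cancer cell line, after 48 hours with 1 of 3 treatments: DMSO as the solvent control, niraparib or olaparib, each drug at 10 μmol/L. Niraparib and olaparib are clinically used inhibitors of PARP1 and PARP2, enzymes that attach ADP-ribose chains to proteins at DNA breaks. Cells of the line called T47D AAV are labelled WT and those of the line called T47D JL are labelled PARP1 KO, and every combination of 2 genotypes and 3 treatments had 3 libraries, 18 in all. All groups were grown in DMEM-based medium with 10% serum, and the sources used here do not say whether the knockout line is a single clone or what the line names stand for.

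Library totals lay between 28890837 and 52251288 counted reads (median 37363326). PARP1 itself was at 22.9 to 27.6 CPM (counts scaled to library size, per 1e6 counted reads) in the PARP1 KO libraries and at 291 to 373 CPM in the WT libraries, without overlap. All 7 luminal breast markers examined were present in every group, but their summed level moved with treatment in WT, at 8890 to 9040 CPM with DMSO, 5950 to 6610 CPM with niraparib and 6720 to 7010 CPM with olaparib. In PARP1 KO it was at 9720 to 10200, 9130 to 9540 and 8200 to 9110 CPM in the same order, also without overlap. Of 8 markers of fibroblasts, endothelium, blood and basal epithelium, COL1A1 was at 88.3 to 153 CPM and the other 7 had at most 13 counts in any library, with summed levels of 102 to 129, 113 to 153 and 95.6 to 107 CPM in the same order in WT and 88.4 to 106, 96.6 to 133 and 99.8 to 124 CPM in PARP1 KO. The part of these shifts in the results below was not tested. A level here is a share of the RNA in a bulk sample, so fewer cells of a kind and less RNA per cell cannot be told apart.

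The core of the antioxidant response element, TGACNNNGC, was searched on both strands of the RefSeq promoter windows (GRCh38.p14, 250 bases before to 50 bases after an annotated start). Windows were at hand for 7 of the 9 genes, with 10 windows in all, and HMOX1 and GSR had none in the table used. A match was present in 4 of the 10 windows, in GCLM, TXNRD1 and KEAP1, against 4687 of all 35116 windows (13.3%). The windows of GCLM and TXNRD1 are shown because these were the genes that differed between the drugs in both genotypes, and that of NQO1 because it had the largest decrease with niraparib; capitals mark the matches, read on the gene's strand.
GCLM, chr1:93909381-93909680, minus strand: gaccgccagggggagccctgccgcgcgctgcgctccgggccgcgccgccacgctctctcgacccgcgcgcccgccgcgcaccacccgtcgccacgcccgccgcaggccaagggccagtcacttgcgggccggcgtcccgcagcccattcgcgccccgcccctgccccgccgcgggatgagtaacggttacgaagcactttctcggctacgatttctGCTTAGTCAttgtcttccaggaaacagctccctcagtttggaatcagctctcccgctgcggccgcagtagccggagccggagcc
TXNRD1 upstream start, chr12:104215529-104215828, plus strand: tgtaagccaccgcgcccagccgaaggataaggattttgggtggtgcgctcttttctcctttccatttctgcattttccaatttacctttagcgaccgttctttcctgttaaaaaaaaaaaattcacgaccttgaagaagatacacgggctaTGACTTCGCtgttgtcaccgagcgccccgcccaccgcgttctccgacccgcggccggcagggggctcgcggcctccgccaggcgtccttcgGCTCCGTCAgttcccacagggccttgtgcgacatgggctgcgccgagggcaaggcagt
TXNRD1 downstream start, chr12:104286782-104287081, plus strand: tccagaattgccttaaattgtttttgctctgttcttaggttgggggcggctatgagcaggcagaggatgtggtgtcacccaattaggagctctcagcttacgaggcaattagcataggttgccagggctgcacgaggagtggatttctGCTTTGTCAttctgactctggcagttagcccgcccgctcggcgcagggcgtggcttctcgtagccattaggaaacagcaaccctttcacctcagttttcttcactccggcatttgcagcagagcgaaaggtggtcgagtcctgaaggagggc
NQO1, chr16:69726511-69726810, minus strand: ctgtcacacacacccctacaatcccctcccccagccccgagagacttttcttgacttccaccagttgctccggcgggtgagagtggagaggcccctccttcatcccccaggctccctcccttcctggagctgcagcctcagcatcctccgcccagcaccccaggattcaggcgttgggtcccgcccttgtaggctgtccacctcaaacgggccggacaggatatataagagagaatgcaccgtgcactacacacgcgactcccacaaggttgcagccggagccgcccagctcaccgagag
The match in GCLM was TGACTAAGC on the opposite strand, with its first base 34 bases before the start. The upstream window of TXNRD1 had TGACTTCGC on the gene's strand and TGACGGAGC on the other, the latter overlapping the start, and the downstream window had TGACAAAGC on the opposite strand. No match lay in the NQO1 window, which says only that these letters are not in these 300 bases. KEAP1, whose window is not shown, had TGACACGGC on the gene's strand and TGACTAAGC, the same letters as in GCLM, on the opposite strand. Its level passed in no comparison below. A match is a description of the sequence, and binding was not measured.

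The 9 genes differed widely in level. Counts were divided by the exon bases of each gene that are not shared with another gene on the same strand, giving CPM per countable kb. In WT cells with DMSO, NQO1 was highest at 116 ± 5.46 CPM per countable kb (mean ± SD, n = 3), followed by TXNRD1 (39.3 ± 1.10), GSR (29.2 ± 0.683), KEAP1 (19.1 ± 0.493), NFE2L2 (14.3 ± 0.308) and GCLC (6.81 ± 0.0833). SRXN1 (3.59 ± 0.940) and GCLM (3.51 ± 0.216) overlapped. HMOX1 had the lowest mean at 2.61 ± 0.247, and its libraries overlapped those of SRXN1. The libraries of neighbours in this order otherwise did not overlap. With niraparib in WT, GSR fell to the level of KEAP1 (22.6 ± 1.54 and 20.1 ± 1.09, overlapping), and with either drug in WT HMOX1 stood above GCLM. SRXN1 is the least secure of the 9, since 85.0% of its exon bases are shared with an overlapping gene model on the same strand, ENSG00000270299, and only 405 bases could be counted; it had 42 to 107 counts per library. Of NFE2L2 18.6% and of GCLC 6.12% of exon bases were shared in this way.

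In WT cells, niraparib moved the NRF2 genes in opposite directions. NFE2L2, HMOX1 and GCLC rose and NQO1, GCLM, TXNRD1 and GSR fell, 7 of 9 at an adjusted P below 0.05, and HMOX1 and NQO1 changed by more than 1.5-fold. Among all 22446 genes tested, 38.0% passed the same threshold, 19.9% higher and 18.1% lower, and 13.8% also changed by more than 1.5-fold. The median log2 fold change of the 9 was 0.053, against −0.025 over all genes. Olaparib raised NFE2L2, HMOX1, GCLC, TXNRD1 and SRXN1 and lowered none, 5 of 9 against 19% of all genes (11.2% higher, 7.77% lower). HMOX1 and SRXN1 rose by more than 1.5-fold, a size of change that 4.04% of all genes had at this threshold. The median of the 9 was 0.18, against −0.017 over all genes. These shares over all genes include many genes of low count. With filterByExpr, which leaves such genes out, 51.2% of all genes passed with niraparib and 26.8% with olaparib. The 2 drug comparisons share the DMSO libraries. The plot of levels by library shows these groups side by side.

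**Figure D1:**
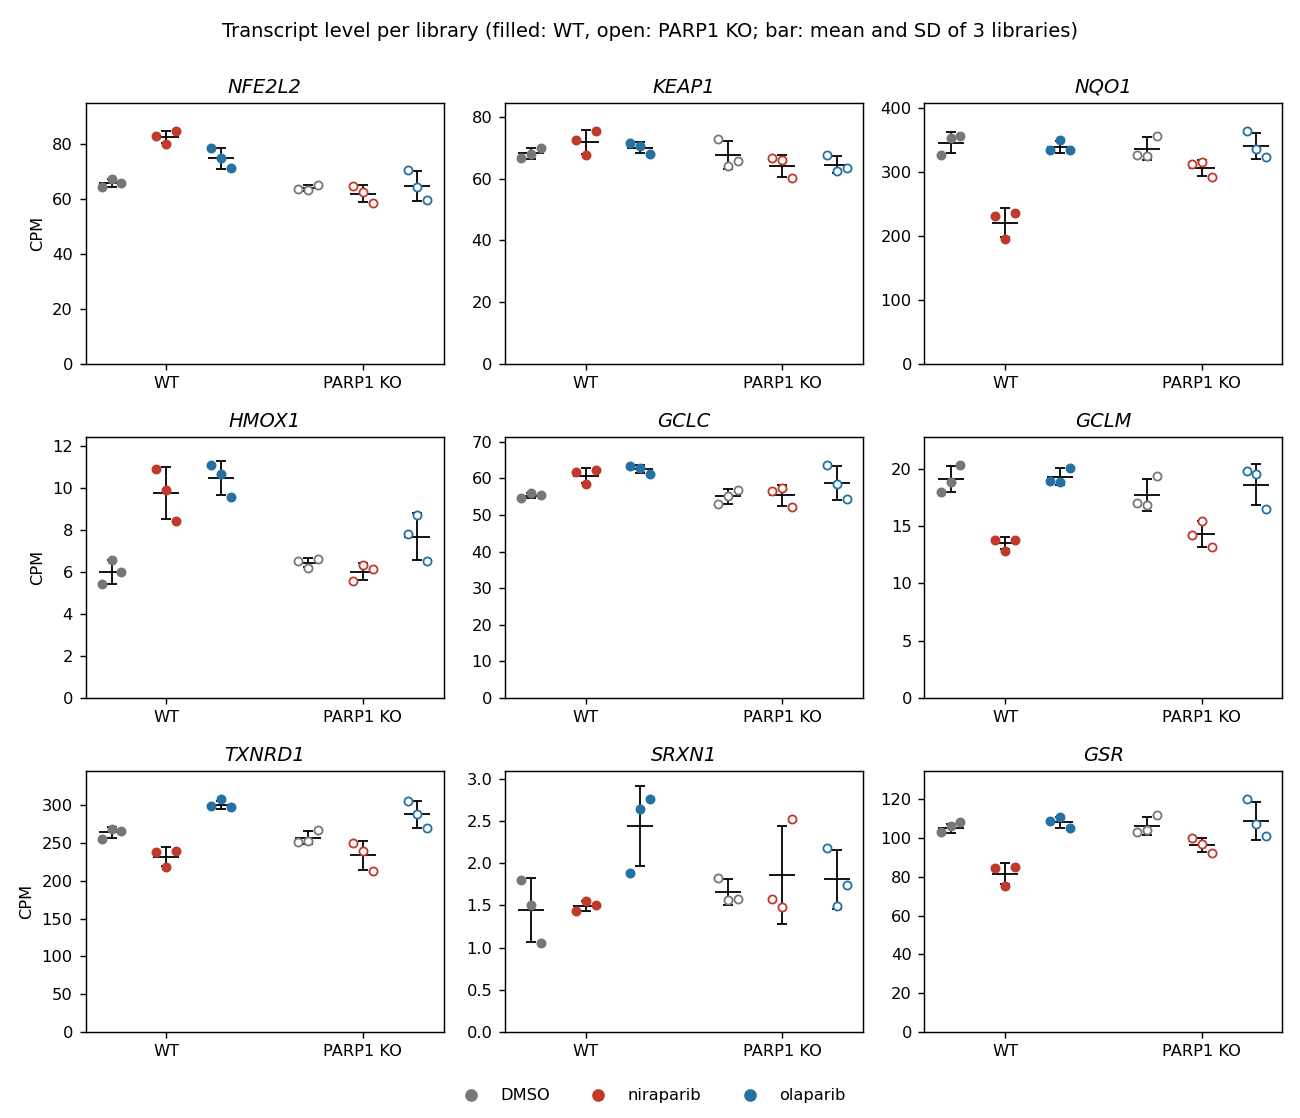
Level of each of the 9 genes in CPM (vertical axis from 0) in the 18 libraries, by genotype and treatment. Points are libraries, and the bar is the mean with the SD of 3 libraries. NQO1 with niraparib in WT (196 to 236 CPM) lies below all other groups, and HMOX1 lies at 8.46 to 11.1 CPM with either drug in WT and at 5.43 to 6.57 CPM with DMSO.

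NFE2L2 (chromosome 2, 177227595 to 177392697, minus strand, GRCh38) encodes NRF2 itself. It was at 64.5, 67.3 and 65.8 CPM in the WT libraries with DMSO, at 83.0, 80.1 and 84.7 CPM with niraparib and at 78.5, 74.8 and 71.2 CPM with olaparib. The 3 groups did not overlap, niraparib being highest. Niraparib raised it 1.25-fold (log2 fold change 0.32 ± 0.051 SE, edgeR adjusted P = 1.9e-05) and olaparib 1.14-fold (0.19 ± 0.051, edgeR adjusted P = 0.012). Without WT olaparib replicate 1 the olaparib change no longer passed (adjusted P = 0.098).

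KEAP1 (chromosome 19, 10486125 to 10503558, minus strand), the adaptor that holds NRF2 for degradation, had the narrowest range of group means of the 9, 0.16 on the log2 scale. Its WT libraries were at 66.6, 67.9 and 70.0 CPM with DMSO, at 72.6, 67.6 and 75.3 CPM with niraparib and at 71.5, 70.5 and 68.0 CPM with olaparib. The groups overlapped, and neither drug's change passed (log2 fold change 0.074 with a 95% interval of −0.034 to 0.18 for niraparib, 0.042 with −0.065 to 0.15 for olaparib).

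NQO1 (chromosome 16, 69706996 to 69726668, minus strand) encodes a quinone reductase that uses NADH or NADPH and is a standard readout of NRF2. It was at 327, 354 and 356 CPM with DMSO in WT, at 232, 196 and 236 CPM with niraparib and at 334, 350 and 334 CPM with olaparib. Every niraparib library was below every DMSO and olaparib library, while DMSO and olaparib overlapped. The decrease with niraparib was 1.56-fold (log2 fold change −0.64 ± 0.061, edgeR adjusted P = 5.8e-08), and olaparib gave −0.025 with a 95% interval of −0.15 to 0.10.

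HMOX1 (chromosome 22, 35380361 to 35394207, plus strand) encodes heme oxygenase-1, which breaks heme down to biliverdin, iron and carbon monoxide. Its levels were low, at 5.43, 6.57 and 6.01 CPM with DMSO in WT, at 10.9, 9.93 and 8.46 CPM with niraparib and at 11.1, 10.7 and 9.59 CPM with olaparib, from 163 to 551 counts per library. All drug libraries were above all DMSO libraries, and the drugs overlapped each other. The rise was 1.62-fold with niraparib (log2 fold change 0.69 ± 0.12, edgeR adjusted P = 4.3e-05) and 1.74-fold with olaparib (0.80 ± 0.12, edgeR adjusted P = 3.7e-05). With niraparib no other of the 9 rose as much, and with olaparib the rise of SRXN1 (0.75 ± 0.23) was within 1 standard error of that of HMOX1.

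GCLC and GCLM encode the catalytic and the modifier subunit of glutamate-cysteine ligase, the rate-limiting enzyme of glutathione synthesis, and they went opposite ways with niraparib. GCLC (chromosome 6, 53497341 to 53616970, minus strand) was at 54.6, 56.0 and 55.4 CPM with DMSO in WT, at 61.7, 58.4 and 62.2 CPM with niraparib and at 63.4, 62.8 and 61.3 CPM with olaparib. Both drug groups lay above the DMSO group. The increases were 1.10-fold with niraparib (log2 fold change 0.13 ± 0.050, edgeR adjusted P = 0.039) and 1.13-fold with olaparib (0.18 ± 0.050, edgeR adjusted P = 0.014). The niraparib call on GCLC was fragile: it was kept in 1 of the 6 fits that each left out a library, that without WT niraparib replicate 2, and lost in the others at adjusted P = 0.061 to 0.12. It was also lost with the replicate number as a block (0.062), with no filter on low counts (0.075) and with all 18 libraries in the model (0.066). The olaparib call was lost without WT olaparib replicate 1 (adjusted P = 0.069).

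GCLM (chromosome 1, 93885199 to 93909456, minus strand) was at 18, 18.8 and 20.3 CPM with DMSO in WT, at 13.8, 12.8 and 13.8 CPM with niraparib and at 18.9, 18.8 and 20.1 CPM with olaparib. The niraparib libraries stood apart below, and the others overlapped. Niraparib lowered GCLM 1.42-fold (log2 fold change −0.51 ± 0.076, edgeR adjusted P = 1.2e-05), whereas olaparib gave 0.018 with a 95% interval of −0.14 to 0.17.

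GSR (chromosome 8, 30678066 to 30727846, minus strand), glutathione reductase, returns oxidized glutathione to its reduced form with NADPH. It was at 103, 106 and 108 CPM with DMSO in WT, at 84.7, 75.1 and 84.8 CPM with niraparib and at 109, 111 and 105 CPM with olaparib. As for NQO1 and GCLM, the niraparib libraries were the low ones. GSR fell 1.29-fold with niraparib (log2 fold change −0.37 ± 0.053, edgeR adjusted P = 6.1e-06), and with olaparib the change was 0.045 with a 95% interval of −0.064 to 0.15.

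TXNRD1 (chromosome 12, 104215779 to 104350307, plus strand), the cytosolic thioredoxin reductase, moved down with niraparib and up with olaparib. Its WT libraries were at 255, 269 and 266 CPM with DMSO, at 238, 218 and 240 CPM with niraparib and at 299, 308 and 298 CPM with olaparib. The 3 groups did not overlap. The log2 fold change was −0.19 ± 0.048 for niraparib (edgeR adjusted P = 0.0035) and 0.20 ± 0.048 for olaparib (edgeR adjusted P = 0.0055), each a change of less than 1.2-fold.

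SRXN1 (chromosome 20, 646615 to 653370, minus strand) encodes sulfiredoxin, which repairs overoxidized peroxiredoxins. It was at 1.8, 1.51 and 1.05 CPM with DMSO in WT, at 1.43, 1.55 and 1.51 CPM with niraparib and at 1.89, 2.65 and 2.76 CPM with olaparib. Only the olaparib group lay above DMSO without overlap, and the nearest libraries were 1.89 and 1.8 CPM. The 1.69-fold increase with olaparib passed (log2 fold change 0.75 ± 0.23, edgeR adjusted P = 0.021), while niraparib gave 0.053 with a 95% interval of −0.42 to 0.53. The olaparib call was lost without WT olaparib replicate 2 (adjusted P = 0.087), WT olaparib replicate 3 (0.10) or WT DMSO replicate 3 (0.12).

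**Figure D2:**
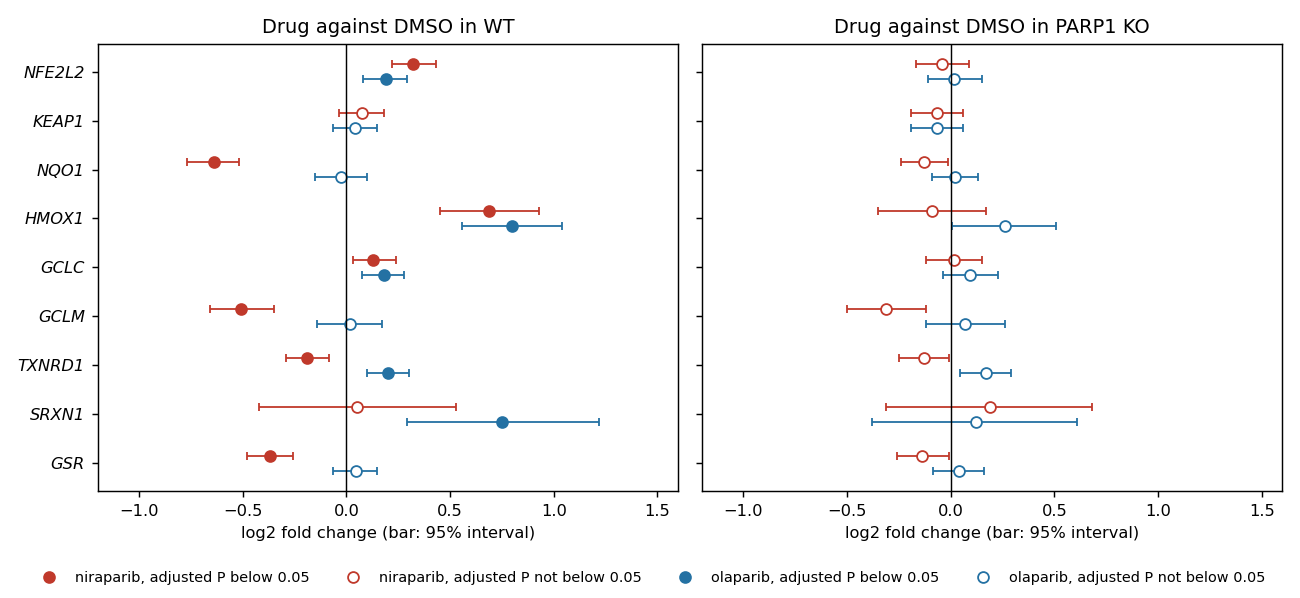
Log2 fold change of each gene with niraparib (red) and olaparib (blue) against DMSO, in WT (left) and PARP1 KO (right). Bars are 95% intervals from the edgeR fit and filled points passed an adjusted P of 0.05: in WT 7 of 9 did with niraparib and 5 of 9 with olaparib, and in PARP1 KO none did with either drug.

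The drugs were then compared directly in WT at the same dose and time. Niraparib libraries had less NQO1, GCLM, TXNRD1, SRXN1 and GSR and slightly more NFE2L2 than olaparib libraries, 6 of 9 genes against 32.2% of all genes tested (16.1% higher, 16.2% lower). With filterByExpr the share of all genes was 43.8%. NQO1 and SRXN1 differed by more than 1.5-fold, as did 8.95% of all genes. The median of the 9 was −0.38, against 0.020 over all genes. The sizes were −0.62 ± 0.061 for NQO1 (edgeR adjusted P = 1.8e-07), −0.52 ± 0.077 for GCLM (1.2e-05), −0.42 ± 0.053 for GSR (2.1e-06) and −0.38 ± 0.048 for TXNRD1 (1.8e-06) on the log2 scale. GCLC did not pass between the drugs, at −0.046 (95% interval −0.15 to 0.058), and neither did HMOX1, at −0.11 (95% interval −0.34 to 0.13), nor did KEAP1, at 0.031 (−0.076 to 0.14). The difference in SRXN1 was −0.70 ± 0.22 (edgeR adjusted P = 0.018) and was lost without WT olaparib replicate 2 (0.077), WT olaparib replicate 3 (0.090) or WT niraparib replicate 1 (0.054). That in NFE2L2 was 0.14 ± 0.051 (edgeR adjusted P = 0.041) and was lost without WT olaparib replicate 2 or 3 or WT niraparib replicate 1 or 3 (adjusted P = 0.097 to 0.21), and also with the replicate number as a block (0.063) or with all 18 libraries in the model (0.056).

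**Figure D3:**
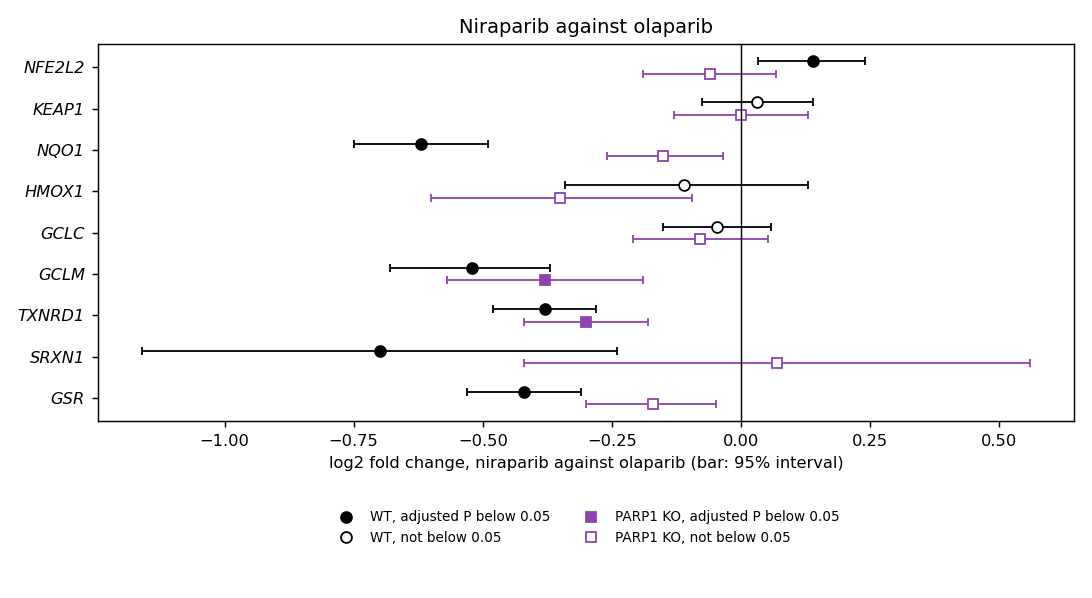
Log2 fold change of each gene between niraparib and olaparib libraries, with 95% intervals, in WT (black) and PARP1 KO (purple); values below 0 are lower with niraparib. In WT 5 genes were lower and 1 higher at an adjusted P below 0.05, and in PARP1 KO GCLM and TXNRD1 were lower.

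Without drug, no difference between the genotypes was detected in these genes. None of the 9 passed between PARP1 KO and WT libraries with DMSO by edgeR, against 1.39% of all 24675 genes tested, none had an unadjusted P below 0.05 and DESeq2 called none. The log2 fold changes ran from −0.11 for GCLM (95% interval −0.27 to 0.062) to 0.20 for SRXN1 (−0.28 to 0.68). For NQO1, whose PARP1 KO libraries with DMSO were at 327, 325 and 357 CPM, the difference was −0.039 (−0.16 to 0.081).

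In PARP1 KO cells, niraparib moved none of the 9 past the threshold by edgeR, where 0.109% of all 22037 genes passed. DESeq2 also called none, and 4 had an unadjusted P below 0.05, beside 9.14% of all genes. Those 4 were the genes that fell in WT: their log2 fold changes in PARP1 KO were −0.13 for NQO1, −0.31 for GCLM, −0.13 for TXNRD1 and −0.14 for GSR, with adjusted P values of 0.48, 0.23, 0.50 and 0.50. GCLM was at 17, 16.8 and 19.4 CPM with DMSO and at 14.2, 15.4 and 13.2 CPM with niraparib, without overlap. NQO1 was at 313, 316 and 293 CPM with niraparib, just under the lowest DMSO library at 325 CPM. HMOX1 was at 6.52, 6.20 and 6.61 CPM with DMSO and at 5.57, 6.34 and 6.15 CPM with niraparib, overlapping, a change of −0.091 with a 95% interval of −0.35 to 0.17. NFE2L2 overlapped as well, at 63.8, 63.2 and 65.1 CPM with DMSO and at 64.8, 62.6 and 58.7 CPM with niraparib.

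Olaparib in PARP1 KO cells also moved none of the 9 past the threshold by edgeR, against 8.29% of all genes, and DESeq2 called none. An unadjusted P below 0.05 was found for 2 of the 9, about the share of all genes (21.1%). Those 2 were TXNRD1 and HMOX1. TXNRD1 was at 251, 253 and 267 CPM with DMSO and at 306, 288 and 270 CPM with olaparib, without overlap, a log2 fold change of 0.17 ± 0.058 (edgeR adjusted P = 0.084). It passed without PARP1 KO olaparib replicate 3 (0.035), the lowest of the olaparib libraries in this gene. HMOX1 was at 7.80, 8.75 and 6.51 CPM with olaparib, the last within the DMSO range, and its log2 fold change was 0.26 (95% interval 0.0041 to 0.51, edgeR adjusted P = 0.23). For the other 7 the changes lay between −0.067 and 0.12.

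Between the drugs in PARP1 KO cells, GCLM and TXNRD1 were lower with niraparib than with olaparib, 2 of 9 genes against 10.0% of all genes (5.73% lower), and neither by more than 1.5-fold. GCLM was at 14.2, 15.4 and 13.2 CPM with niraparib and at 19.8, 19.5 and 16.5 CPM with olaparib. TXNRD1 was at 250, 240 and 213 CPM with niraparib and at 306, 288 and 270 CPM with olaparib. Neither gene's groups overlapped. The log2 differences were −0.38 ± 0.092 for GCLM (edgeR adjusted P = 0.0091) and −0.30 ± 0.058 for TXNRD1 (edgeR adjusted P = 0.0021), beside −0.52 and −0.38 in WT. NQO1 (−0.15), HMOX1 (−0.35) and GSR (−0.17) had adjusted P values of 0.094, 0.077 and 0.075. The number of genes called was not stable: it was 3, with GSR added, when no filter on low counts was applied (adjusted P = 0.033) or all 18 libraries were in the model (0.038). GCLM was lost without PARP1 KO olaparib replicate 2 (adjusted P = 0.066), and without PARP1 KO olaparib replicate 3 the count rose to 5, with NQO1 (0.044), HMOX1 (0.023) and GSR (0.020) added.

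Whether the response differed between the genotypes was tested as an interaction, the log2 fold change with a drug in PARP1 KO minus that in WT. Each genotype was a single line, so loss of PARP1 and other differences between the lines cannot be told apart. For niraparib, 4 of 9 genes passed, 2 above and 2 below 0, against 22.9% of all genes (10.4% above, 12.5% below), and 1 of them, HMOX1, exceeded 1.5-fold, against 8.88% of all genes. The interaction was −0.79 ± 0.17 for HMOX1 (edgeR adjusted P = 4.2e-04) and −0.37 ± 0.080 for NFE2L2 (4.9e-04): both rose in WT, and in PARP1 KO their changes were −0.091 and −0.042, which did not pass. It was 0.51 ± 0.083 for NQO1 (1.6e-05) and 0.23 ± 0.082 for GSR (0.038), which fell in WT and had −0.13 and −0.14 in PARP1 KO, which did not pass. The call on GSR was kept in 5 of the 12 fits that each left out a library, and was lost without WT niraparib replicate 2, WT DMSO replicate 2 or 3, PARP1 KO niraparib replicate 1 or 2, or PARP1 KO DMSO replicate 1 or 2 (adjusted P = 0.065 to 0.12). The other 5 genes did not pass. Their interactions were 0.19 for GCLM (95% interval −0.053 to 0.43), 0.050 for TXNRD1 (−0.11 to 0.21), −0.13 for GCLC (−0.29 to 0.038), −0.15 for KEAP1 (−0.31 to 0.017) and 0.13 for SRXN1 (−0.54 to 0.80).

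For olaparib the interaction passed for none of the 9 by edgeR, against 2.27% of all genes. An unadjusted P below 0.05 was found for 2 of the 9, beside 15.7% of all genes, and DESeq2 called HMOX1 alone, beside 4.10%. The value for HMOX1 was −0.54 ± 0.17 (95% interval −0.88 to −0.20, edgeR adjusted P = 0.077), and it passed when no filter on low counts was applied (0.046). The other of the 2 was NFE2L2, at −0.17 (95% interval −0.33 to −0.0023, edgeR adjusted P = 0.31). SRXN1, at −0.63, had a 95% interval of −1.30 to 0.032.

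Beyond the 9 genes, 5 lists of the wider NRF2 system with 57 genes were examined, and all 57 were found in the files. In WT, 10 of the 54 tested rose and 21 fell with niraparib, beside 19.9% and 18.1% of all genes, and 6 changed by more than 1.5-fold, beside 13.8%. With olaparib 12 rose and 4 fell, beside 11.2% and 7.77%, and 3 changed by more than 1.5-fold, beside 4.04%. Between the drugs, 6 were higher and 22 lower with niraparib, beside 16.1% and 16.2%, and 5 differed by more than 1.5-fold, beside 8.95%. The shares over all genes include many genes of low count. With filterByExpr, which leaves these out, 31 of 50 genes passed with niraparib, beside 51.2% of all genes, 17 with olaparib, beside 26.8%, and 29 between the drugs, beside 43.8%. In PARP1 KO none of 54 passed with niraparib by edgeR, where 0.109% of all genes did, 9 had an unadjusted P below 0.05, beside 9.14% of all genes, and DESeq2 called none. With olaparib in PARP1 KO 4 rose and 1 fell by edgeR, near the 8.29% of all genes that passed, none by more than 1.5-fold, whereas DESeq2 called 12, beside 9.94% of all genes. Between the drugs in PARP1 KO, 3 were higher and 8 lower with niraparib, beside 10.0% of all genes (5.73% lower), none by more than 1.5-fold. For niraparib the interaction passed for 23 of 55, with 14 above and 9 below 0, beside 22.9% of all genes, and for 7 by more than 1.5-fold, beside 8.88%.

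Of 12 partners and regulators of NRF2, 5 rose and 2 fell with niraparib in WT, beside 19.9% and 18.1% of all genes, and 1 changed by more than 1.5-fold, beside 13.8%. With olaparib 5 rose and 1 fell, beside 11.2% and 7.77%, again 1 of them by more than 1.5-fold, beside 4.04%. MAFG, a small MAF partner, was at 53.4, 48.6 and 46.0 CPM with DMSO, at 78.5, 81.1 and 76.3 CPM with niraparib and at 73.1, 74.3 and 73.6 CPM with olaparib, so that all drug libraries were above all DMSO libraries. Its log2 fold changes were 0.67 ± 0.055 (edgeR adjusted P = 2.2e-09) and 0.58 ± 0.055 (1.7e-07). In PARP1 KO it rose with olaparib (0.47, edgeR adjusted P = 9.7e-05), whereas niraparib gave 0.018, and the niraparib interaction was −0.66 (1.0e-07). MAFF rose by 0.51 with niraparib (edgeR adjusted P = 7.5e-04) and 0.72 with olaparib (8.0e-05). SQSTM1 encodes p62, which binds KEAP1 and carries it to autophagy; it rose by 0.53 (edgeR adjusted P = 5.4e-09) and 0.21 (0.0025), with a niraparib interaction of −0.62 (1.2e-08). NFE2L3, a relative of NRF2, was 0.71 higher in PARP1 KO than in WT with DMSO (edgeR adjusted P = 0.013), a call lost without WT DMSO replicate 1 (0.092), PARP1 KO DMSO replicate 1 (0.058) or PARP1 KO DMSO replicate 2 (0.11), at means of 4.68 ± 0.780 and 2.84 ± 0.188 CPM (SD, n = 3). In WT it rose by 0.48 with niraparib (edgeR adjusted P = 0.016, 0.078 without WT niraparib replicate 1), and its niraparib interaction was −0.76 ± 0.22 (0.0084), which passed in all 17 alternatives. With niraparib its means were 3.82 ± 0.652 CPM in PARP1 KO and 3.98 ± 0.410 CPM in WT. The interaction uses the same DMSO libraries as the genotype difference, so they are not separate results.

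Among 17 further glutathione and thioredoxin targets, 4 rose and 5 fell with niraparib in WT, near or somewhat above the 19.9% and 18.1% of all genes, and 3 rose and 2 fell with olaparib, beside 11.2% and 7.77%. More than 1.5-fold changes passed in 3 of the 17 with niraparib, near the 13.8% of all genes, and in 2 with olaparib, beside 4.04%. SLC3A2 and SLC7A11 encode the heavy and the light chain of the cystine importer that supplies cysteine for glutathione, and SLC3A2 pairs with other amino acid transporters too. SLC3A2 was at 360, 368 and 338 CPM with DMSO in WT, at 889, 956 and 904 CPM with niraparib and at 601, 570 and 578 CPM with olaparib, without overlap. It rose by 1.37 ± 0.050 with niraparib (edgeR adjusted P = 5.1e-15) and 0.72 ± 0.049 with olaparib (2.3e-09). SLC7A11 went opposite ways, at 13.4, 14.2 and 12.6 CPM with DMSO, at 16.4, 18.7 and 20.2 CPM with niraparib and at 10.4, 11.1 and 11 CPM with olaparib. Its log2 fold changes were 0.46 (edgeR adjusted P = 1.5e-04) and −0.30 (0.019), and the difference between the drugs was 0.76 ± 0.088 (5.6e-07). The olaparib call on SLC7A11 was lost without WT olaparib replicate 1 (0.083), WT olaparib replicate 3 (0.052) or WT DMSO replicate 2 (0.097). In PARP1 KO the niraparib changes were 0.016 for SLC3A2 and −0.035 for SLC7A11, and neither passed. The niraparib interaction of SLC3A2 was −1.36 (edgeR adjusted P = 1.6e-16). With olaparib in PARP1 KO, SLC3A2 rose from 339, 323 and 301 CPM to 430, 382 and 385 CPM (log2 fold change 0.31 ± 0.053, edgeR adjusted P = 9.4e-04), while SLC7A11 gave −0.011, which did not pass. GSS, glutathione synthetase, was singled out after its values were seen: it was at 112, 114 and 117 CPM with DMSO in WT, at 151, 165 and 159 CPM with niraparib and at 118, 122 and 121 CPM with olaparib. It rose by 0.47 ± 0.046 with niraparib (edgeR adjusted P = 3.6e-08) and was 0.39 ± 0.046 higher than with olaparib (8.9e-07). In PARP1 KO, GSS was at 123, 113 and 122 CPM with DMSO, at 130, 133 and 135 CPM with niraparib and at 109, 115 and 120 CPM with olaparib. The niraparib libraries were the highest there too, though the change against DMSO did not pass.

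PRDX1, a peroxiredoxin that sulfiredoxin repairs, was at 404, 473 and 458 CPM with DMSO in WT, at 281, 230 and 286 CPM with niraparib and at 383, 409 and 384 CPM with olaparib. It fell by 0.75 on the log2 scale with niraparib (edgeR adjusted P = 1.5e-05), and the niraparib interaction was 0.64 (1.9e-04). GSTM4, a glutathione transferase that shares 6.55% of its exon bases with GSTM2, fell by 0.64 (edgeR adjusted P = 4.8e-07) with an interaction of 0.65 (4.0e-06). In both genes the niraparib libraries of WT were the low ones.

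Of 6 enzymes that supply NADPH or its precursors, 4 fell and none rose with niraparib in WT, beside 18.1% of all genes lower, and 1 rose and none fell with olaparib, near the 19% of all genes that passed. None of the 6 passed with more than 1.5-fold with either drug. Of 15 detoxification targets 12 could be tested, of which 7 fell and none rose with niraparib, beside 18.1% of all genes lower, 2 of them by more than 1.5-fold, near the 13.8% of all genes. With olaparib 1 rose and 1 fell, near the 19% of all genes that passed, neither by more than 1.5-fold. The carbonyl reductase CBR3 was at 8.24, 9.44 and 8.18 CPM with DMSO and at 6.13, 4.65 and 4.66 CPM with niraparib, and PIR, an iron-binding nuclear protein, at 23.1, 26.3 and 24.3 CPM and at 15.7, 14.5 and 15.6 CPM. They fell by 0.76 (edgeR adjusted P = 4.2e-05) and 0.69 (8.3e-08) on the log2 scale with niraparib, while olaparib gave 0.13 and 0.12, which did not pass. The niraparib interactions were 0.63 for CBR3 (0.0049) and 0.54 for PIR (6.8e-05).

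Among 7 heme and iron genes, 1 rose and 3 fell with niraparib in WT, beside 19.9% and 18.1% of all genes, and 2 rose and none fell with olaparib, beside 19% that passed. None of these changes exceeded 1.5-fold. FTL, the light chain of the iron store ferritin, was at 112, 119 and 119 CPM with DMSO, at 106, 94.1 and 106 CPM with niraparib and at 162, 151 and 156 CPM with olaparib. Like TXNRD1, it moved down with niraparib (−0.20, edgeR adjusted P = 0.0056) and up with olaparib (0.42, 7.8e-06). The difference between the drugs was −0.62 ± 0.054 in WT (1.2e-08) and −0.49 ± 0.075 in PARP1 KO (7.0e-04), and the interaction for niraparib did not pass, at 0.029.

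For contrast, 16 antioxidant genes that are not usually counted as NRF2 targets were examined, of which 15 had enough counts to be tested in WT. With niraparib 4 rose and 9 fell, beside 19.9% and 18.1% of all genes, 2 of them by more than 1.5-fold, beside 13.8%. With olaparib 2 rose and 1 fell, close to the 19% of all genes that passed, 1 of them by more than 1.5-fold, beside 4.04%. On the log2 scale their median with niraparib was −0.19, beside −0.21 for the detoxification list, −0.37 for the NADPH list, −0.15 for the glutathione and thioredoxin list, −0.11 for the heme and iron list and 0.095 for the partners and regulators. TXNIP, which inhibits thioredoxin and is thus no antioxidant enzyme, had the largest rise, from 99.5, 101 and 99.9 CPM with DMSO to 245, 233 and 232 CPM with niraparib and 190, 165 and 179 CPM with olaparib. Its log2 fold changes were 1.24 (edgeR adjusted P = 5.6e-14) and 0.84 (6.0e-10), with a niraparib interaction of −1.12 (0.0016). GLRX2, a mitochondrial glutaredoxin, rose by 0.71 with niraparib (edgeR adjusted P = 6.7e-08), with −0.022 for olaparib and a difference between the drugs of 0.74 (8.8e-08).

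**Figure D4:**
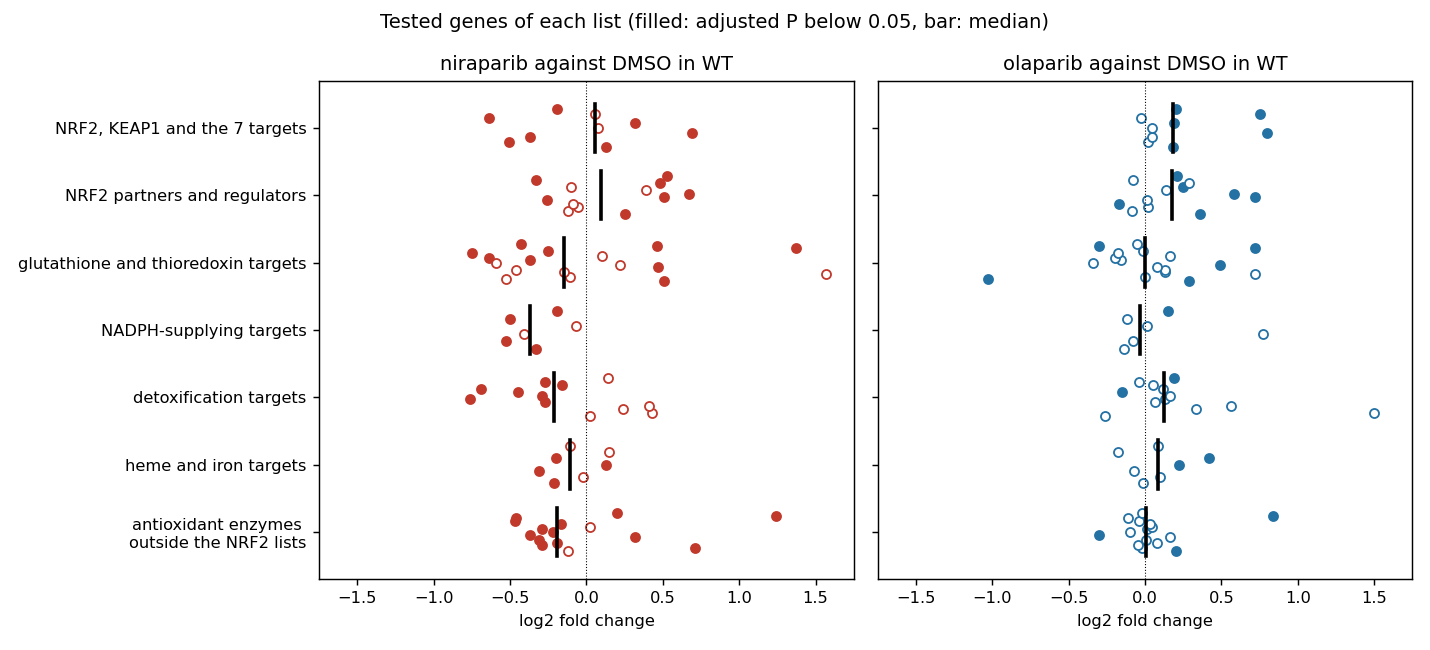
Log2 fold change of each tested gene of the 9 NRF2 genes, the 5 further NRF2 lists and the antioxidant genes outside them, with niraparib (left) and olaparib (right) against DMSO in WT; filled points passed an adjusted P of 0.05 and the bar is the list median. The NADPH list has its median at −0.37 with niraparib and −0.033 with olaparib, and the 9 NRF2 genes at 0.053 and 0.18.

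The genes most like HMOX1, NQO1 and SRXN1, the 3 members with the widest range over groups, were sought among 11010 genes by the root mean square difference of the 6 centred group means of log2 CPM. Nearest to NQO1 were RAB11A (0.0184), CUL4B (0.0240) and FBXL5 (0.0248). RAB11A, a GTPase of recycling endosomes, had means of 333, 214 and 318 CPM in WT and 329, 297 and 331 CPM in PARP1 KO with DMSO, niraparib and olaparib, beside 346, 221 and 339 and 337, 307 and 341 CPM for NQO1. Nearest to HMOX1 were CEBPD (0.0552), GRPEL2 (0.0556) and FOXC1 (0.0588), all with higher means with either drug in WT and with little change with niraparib in PARP1 KO. Nearest to SRXN1 were GATM (0.0607), SFR1 (0.0649) and SOWAHA (0.0706), at a low level of SRXN1 that makes its pattern less certain. None of these genes was on the lists of NRF2 genes.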

How the data were processed

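The authors sequenced stranded poly(A) libraries of T47D RNA. They trimmed the reads, mapped them to GRCh38 with STAR, marked duplicates and deposited, library by library, raw read counts of genes (featureCounts 2.0.0, reverse strand setting, Ensembl release 96); whether marked duplicates were left out of the counts is not given in the methods. A read on exons of more than 1 same-strand gene was left uncounted, so a gene inside another is understated. Coordinates are those of the count files.

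edgeR 4.0.16 in R 4.3.3 tested genes whose counts summed to more than 10 in a fit (TMM, robust quasi-likelihood F test, Benjamini-Hochberg adjustment over all genes tested). The WT and the PARP1 KO fits used 9 libraries each, and interactions and the comparison of genotypes all 18. A gene rose or fell at an adjusted P below 0.05, and the count that also changed more than 1.5-fold is given beside it. Each standard error is the size of the log2 fold change over the square root of its F statistic, and 95% intervals use the degrees of freedom of the fit. CPM values were scaled by TMM over the 18 libraries. The biological coefficient of variation was 7.04% for WT and 7.42% for PARP1 KO libraries. With 3 libraries against 3, an exact two-sided permutation test of a single gene cannot go below 0.1, so none is given.

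The genes, lists and rules were chosen with earlier results of these data known. Named beside the 9 genes were, per list and comparison, up to 3 genes with the largest change among those past an adjusted P of 0.05 and 1.5-fold, with a mean of at least 1 CPM and no overlap between libraries (not asked for interactions), and per member the 3 most alike in pattern, with a mean of at least 5 CPM and a pseudocount of 0.5 CPM. SOD2 was not matched to an identifier and is not analysed here. Per the paper, dishes were prepared in triplicate per condition and the T47D values come from a single representative experiment, so P values measure the spread between these libraries and not between experiments. Their counts differed by more than sampling noise in every pair within a group. In WT DMSO the chi-square per gene was 19.0 and 17.5 for replicate 1 against replicates 2 and 3, and 3.28 between replicates 2 and 3. Alternatives were RLE size factors, filterByExpr, DESeq2 1.42.0, no filter on low counts, a replicate block, 1 model of all 18 libraries, the 1.5-fold threshold and each library left out in turn. The scripts were tested on simulated counts. Promoter sequences are from RefSeq.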

Additional observations from a re-analysis of the deposited data

Results flagged for a closer look

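The response to niraparib differed between WT and PARP1 KO cells in 4 of the 9 genes, beside 22.9% of all genes, by the interaction test over all 18 libraries, which is why they are listed here. HMOX1 had an interaction of −0.79 on the log2 scale: all 3 WT libraries with niraparib were above all 3 with DMSO, and in PARP1 KO the 2 groups overlapped. NFE2L2 had −0.37, with the same arrangement of libraries. NQO1 had 0.51, and its niraparib libraries lay below the DMSO libraries in both genotypes, at 196 to 236 CPM in WT and 293 to 316 CPM in PARP1 KO. GSR had 0.23, again with niraparib libraries below DMSO in both genotypes. The interactions of HMOX1, NFE2L2 and NQO1 passed in all 17 alternatives and that of GSR in 10 of 17. No cause was tested.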

How the results depend on the processing

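Of 1316 values of single genes under the alternatives, 1258 kept their direction and their side of the threshold, 39 lost the call, 10 gained one and 9 changed sign. The sign changes were in changes that did not pass, each on leaving out a library. The ranges over libraries left out were −0.14 to 0.21 for SRXN1 with niraparib in WT, −0.12 to 0.33 in PARP1 KO and −0.18 to 0.32 for its interaction (negative also at −0.029), −0.018 (and −0.013) to 0.065 for GCLM with olaparib in WT, −0.018 (and −0.015) to 0.055 for GCLC with niraparib in PARP1 KO, and −0.000173 to 0.075 for KEAP1 between the drugs in WT. Of 126 counts of the 9 genes, 113 stayed within 1.5 times. Asking also for a 1.5-fold change took the WT counts from 7 to 2 with niraparib, 5 to 2 with olaparib and 6 to 2 between the drugs, the PARP1 KO count between the drugs from 2 to 0 and the niraparib interaction from 4 to 1. With olaparib in PARP1 KO the count was 0, and 1 with no filter on low counts or with all 18 libraries (TXNRD1); for the olaparib interaction it was 0, and 1 with no filter or with DESeq2 (HMOX1). On leaving out each library the counts ran from 3 to 5 for olaparib in WT, 3 without WT olaparib replicate 1, from 0 to 1 for olaparib in PARP1 KO, 1 without PARP1 KO olaparib replicate 3, and from 1 to 5 between the drugs in PARP1 KO. The cause was not tested.

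The replicate numbers did not pair the samples: correlations of same-numbered libraries of a genotype ran from −0.54 to 0.552 (median −0.0846, 18 pairs). Those of differently numbered libraries of a genotype ran from −0.59 to 0.63 (median 0.0878, 36 pairs), and across genotypes up to 0.657. The 0.63 was between WT niraparib replicate 2 and WT DMSO replicate 1. Shared shifts of this kind were not modelled. With the replicate number as a block the counts were 6, 5 and 5 in WT for niraparib, olaparib and between the drugs, 0, 0 and 2 in PARP1 KO, 4 and 0 for the interactions and 0 between genotypes.

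Counts over all genes moved most in PARP1 KO with niraparib, from 24 to 70 with all 18 libraries, 97 with DESeq2, 184 with no filter, 11 with the block and as low as 8 without PARP1 KO DMSO replicate 2 or PARP1 KO niraparib replicate 1. The 1827 genes with olaparib in PARP1 KO fell as low as 792 and the 2203 between the drugs to 1142. The 344 between genotypes fell to 51 without WT DMSO replicate 1, with 680 in DESeq2 and 742 with no filter. The 559 of the olaparib interaction ran from 284 to 899 on leaving out a library, with 1011 in DESeq2 and 1094 with no filter. SRXN1, at 42 to 107 counts per library, had a standard error of 0.23 with olaparib in WT on the log2 scale and HMOX1 one of 0.12, beside 0.048 to 0.075 for the other 7.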
